A study of Mus musculus with 2 samples.

Results

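The genes described here are 10 core genes of the Notch pathway in mouse skin: the receptors Notch1, Notch2, Notch3 and Notch4, the ligands Jag1, Jag2 and Dll1, and the target genes Hes1, Hey1 and Heyl. They were chosen by symbol, as probe spots whose gene name in the scanner files equals a member, out of 27840 gene names on the array. All 10 were found, on 13 probes and 31 spots, and 9 of them were measured on both arrays, a probe counting as measured where at least 0.5 of its spots were well above background. The study compared full-thickness back skin from C3H/HeN males aged 61 days that had received either 1 µg of FGF18 protein, a fibroblast growth factor, or PBS under the skin. Both groups had been depilated to start anagen, the growth phase of the hair follicle, were injected on day 4 and were sampled 24 h later, 5 days after depilation. Each group is 1 one-colour array of RNA that was pooled according to the design text, whereas the extraction protocol says the mice, 3 in number, were extracted separately. The spread between mice therefore cannot be measured and no test between the groups was possible. The PBS sample is titled telogen, the resting phase, although its other labels say anagen.

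Notch is a receptor that passes a signal between touching cells. A Jagged or Delta-like ligand on one cell binds Notch on its neighbour, the receptor is cut first by an ADAM protease and then by gamma-secretase, and its freed intracellular part joins RBPJ and Mastermind proteins in the nucleus to switch on repressor genes of the Hes and Hey families. In skin the pathway is known for promoting the differentiation of suprabasal keratinocytes and for maintaining the layers of the growing hair follicle, and in blood vessels it acts between endothelial and mural cells.

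On each array 43379 spots were not controls, and 62.4% of them were well above background with FGF18 and 61.5% with PBS. Processed signals are in arbitrary units and a signal of 1 probe cannot be set against that of another. For ratios, each array was scaled to its 75th percentile, 1020 units with FGF18 and 899 with PBS, which lowers every log2 ratio by 0.18 relative to the unscaled signals. Ratios are given as FGF18 minus PBS on the log2 scale. Their median over 16693 measured genes was -0.07, so a ratio is best read against that value. Suprabasal keratinocyte markers were lower on the FGF18 array, with a median ratio of -0.79. Of these 10 markers 0 were above 0, against 37.5% of all genes. Basal keratinocyte markers had a median of -0.06, with 3 of 8 above 0. With spike-in scaling, described below, the suprabasal median was 0.03.

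No Notch member differed between the arrays by as much as 1.5-fold. Of the 9 measured members, 0 passed 1.5-fold, against 8.63% of all measured genes, and 0 passed 2-fold, against 2.52%. The median ratio of the members was -0.03, the lowest was -0.24 (Notch3) and the highest 0.35 (Dll1). The 3 ligand members all lay above 0 and the 3 measured receptors all below it, by less than 1.5-fold in each case. The target genes lay on both sides. Jag1 was above 0 only on its dim probe, and Notch4 was at 0.06 without scaling. Of the 6 measured ligands in the wider pathway list described below, 4 were above 0 and 2 below. In all, 4 of the 9 members were above 0, against 37.5% of all genes. All 12 measured member probes fell inside the central 95% of ratios of probes of like signal, and all 12 ratios were smaller than 2 scanner errors. The scanner error is the software's own error of the signal carried into the ratio, 0.20 to 0.28 for these probes. It is the error of a single spot and was not reduced for Dll1 and the first Notch1 probe, each printed as 10 spots. The ratios of those spots had an SD of 0.08 for Dll1 and 0.06 for Notch1, smaller than the scanner error. Because whole skin was measured, fewer cells of a type and less RNA per cell cannot be told apart. Under spike-in scaling, described below, 8 of the 9 measured members passed 1.5-fold, against 75.5% of all genes.

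**Figure D1:**
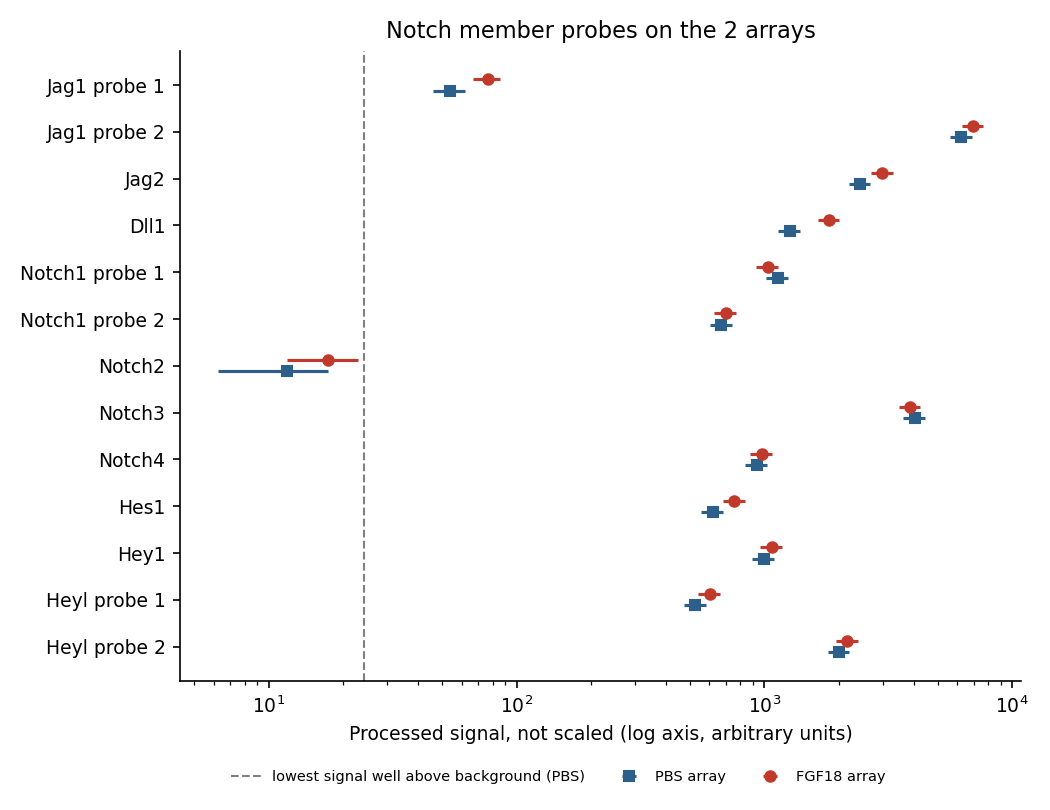
Processed signal of each member probe on the PBS array (squares) and the FGF18 array (circles), on a log axis in arbitrary units, with bars for the scanner software's error. The Notch2 signals of 17.3 and 11.8 lie left of the dashed line, the lowest PBS signal well above background, and the other probes lie right of it with the signals of both arrays close together.

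Dll1 encodes a Delta-type ligand and had the highest ratio of the members. Its probe (A_51_P306017) was printed as 10 spots, whose signals ran from 1690 through a median of 1820 to 1920 with FGF18 and from 1060 through a median of 1280 to 1370 with PBS. Every FGF18 spot was brighter than every PBS spot. After scaling the log2 ratio was 0.35 ± 0.08 (SD over 10 spots of 1 pair of arrays), a 1.27-fold higher level on the FGF18 array (1.44-fold without scaling). The single spots had ratios between 0.29 and 0.54, with 10 of 10 above 0. Spots of 1 probe share the same RNA, so this spread is printing and scanning error alone. Of all measured genes, 91.7% had a lower ratio than Dll1.

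Jag2, a Jagged-type ligand, gave a signal of 2990 with FGF18 and 2430 with PBS. Its ratio was 0.12 with a scanner error of 0.20, so it was 1.08-fold higher, within that error. Jag1, the other Jagged-type member, had 2 probes that lay 1449 bases apart by the positions in the files and that did not give the same sign. The first (A_51_P280906) was dim, at 76.5 with FGF18 and 54.1 with PBS, and had a ratio of 0.32 with a scanner error of 0.28. The second (A_52_P634090) read 6940 and 6230, and its ratio was -0.03 with a scanner error of 0.20. The Jag1 mean of 0.15 thus rests on the dim probe. The gap of 0.34 between its probes was no larger than the scanner error of that gap, 0.35. Over 4172 genes with 2 measured probes the median gap was 0.16 and the 90th percentile 0.55.

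Notch1, a receptor known for its part in keratinocyte differentiation, was lower on both of its probes. The first probe (A_51_P508510) was also printed as 10 spots. Its signals ran from 998 through a median of 1030 to 1060 with FGF18 and from 1070 through a median of 1150 to 1220 with PBS, again without overlap. The scaled ratio was -0.32 ± 0.06 (SD over 10 spots), and the spots lay between -0.43 and -0.24. The second probe (A_52_P183088), which abuts the first and shares 1 base with it by the files' positions, read 698 with FGF18 and 671 with PBS. Its ratio was -0.12 with a scanner error of 0.20. The Notch1 mean was -0.22, a 1.17-fold lower level on the FGF18 array, and without scaling the second probe was 1.04-fold higher there.

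The replicate spots can be set against the other probes printed in the same way. Of 179 measured probes with 8 or more spots, 53.6% had scaled spot values that did not overlap between the arrays, so the absence of overlap for Dll1 and the first Notch1 probe was shared by many. Dll1 ranked 29 from the highest ratio among these probes and Notch1 25 from the lowest. The CV of the spot signals was 4.06% with FGF18 and 7.59% with PBS for Dll1, and 2.22% and 4.62% for Notch1.

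**Figure D2:**
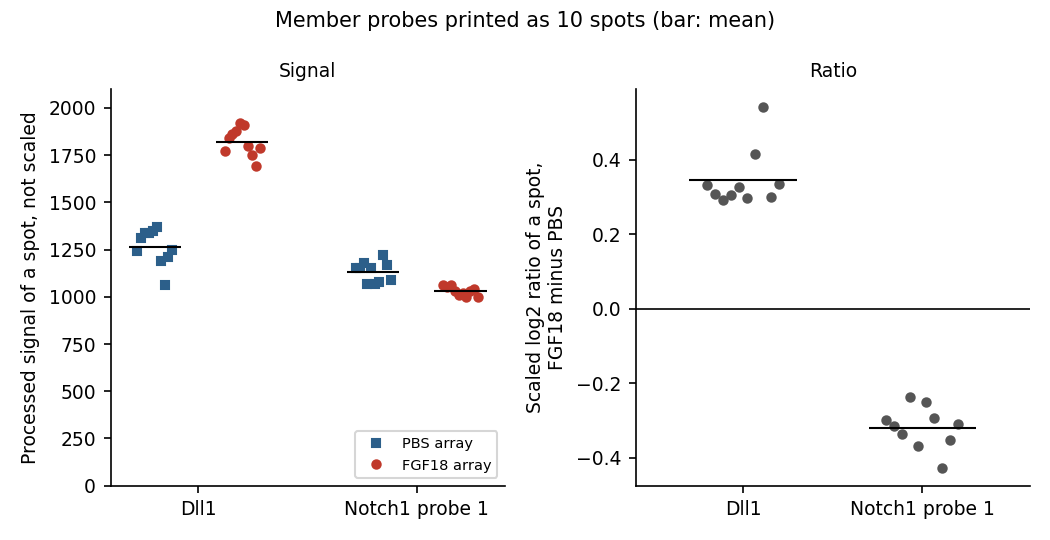
Left, unscaled processed signal of each of the 10 spots of the Dll1 probe and the first Notch1 probe on the PBS array (squares) and FGF18 array (circles), with the mean as a bar. Right, the scaled log2 ratio of each spot: the Dll1 spots lie between 0.29 and 0.54 and the Notch1 spots between -0.43 and -0.24.

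Notch3, a receptor known from mural cells of blood vessels, read 3870 with FGF18 and 4040 with PBS, and its ratio was -0.24 with a scanner error of 0.20. Notch4, a receptor of endothelial cells, read 974 and 932, and its ratio was -0.12, with the same error. Both receptors lay closer to the middle of all genes than to the 1.5-fold mark, with 22.8% of genes below Notch3 and 41.7% below Notch4. Notch2 was not well above background on either array, with a signal of 17.3 ± 5.51 (scanner error) with FGF18 and 11.8 ± 5.55 with PBS. The lowest signal that was well above background was 23.3 and 24.2, so no ratio is given for Notch2, and the value speaks only for its 1 probe.

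Hes1, a repressor and a direct target of Notch, read 756 with FGF18 and 619 with PBS, and its ratio was 0.11 with a scanner error of 0.20. The positions the files give for the Hes1 probe span 296 bases, against 59 or 60 for the other member probes. Hey1, a related repressor of the vessel wall and other tissues, read 1070 and 992 and had a ratio of -0.07, at the median of all genes. Heyl, another repressor of the Hey group, had 2 probes 1427 bases apart. They read 602 and 2160 with FGF18 and 526 and 2000 with PBS, and their ratios of 0.01 and -0.07 differed by less than the scanner error of 0.29. For all 3 target genes the ratio was smaller than its scanner error.

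**Figure D3:**
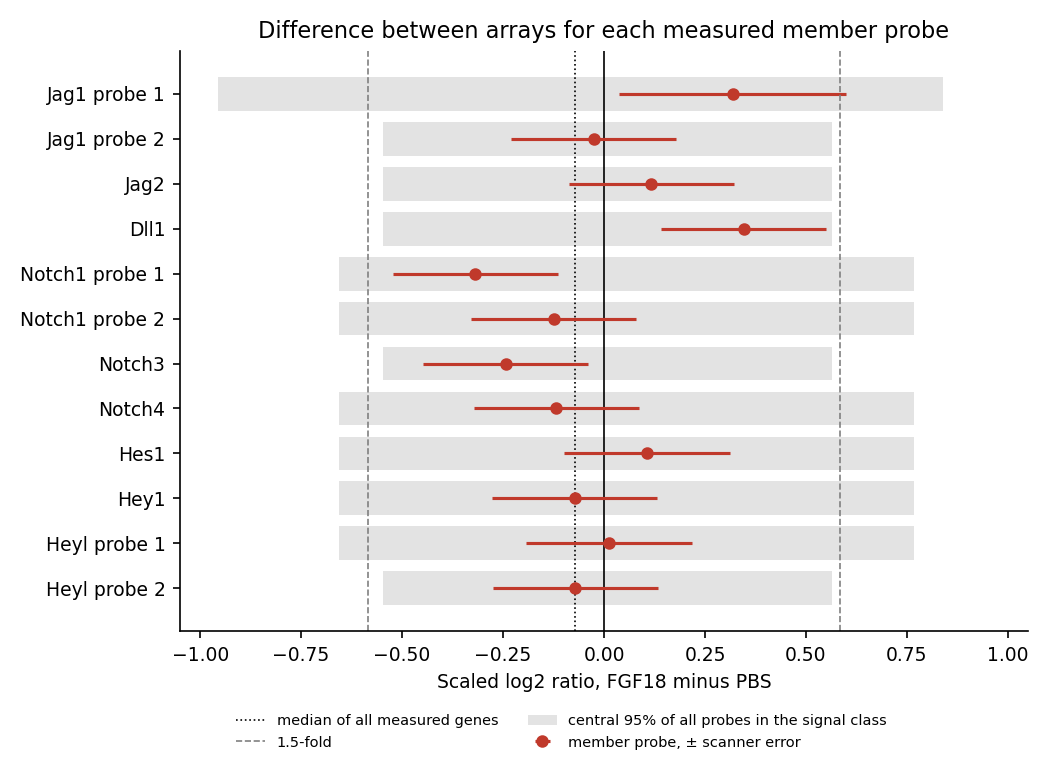
Scaled log2 ratio, FGF18 minus PBS, of the 12 measured member probes, with bars for the scanner error of a single spot. Grey bands show the central 95% of all measured probes in the same class of signal (dim, middle or bright), dashed lines 1.5-fold and the dotted line the median of all genes (-0.07); every point lies inside its band, from -0.32 (Notch1 probe 1) to 0.35 (Dll1).

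The sign of a small ratio depended on the processing. Over 14 processing alternatives Dll1, Jag2 and Hes1 were above 0 in 14, Jag1 in 11, and Notch1 and Notch3 were below 0 in 13, the exception being scaling to spike-in transcripts. Spike-in scaling rested on 7 probes and added 0.81 to every ratio, which placed all 9 measured members above 0; the amount of spike-in added to either RNA was not stated. Measured against the median of all genes under each alternative, Dll1, Jag1, Jag2 and Hes1 lay above it in 14 of 14, Notch1 and Notch3 below it in 14 of 14, and Notch4 below it in 13. Hey1 lay below it in 12 and Heyl above it in 13. Jag1 came nearest to the median, at 0.04 above it, when only probes with a signal over 100 on both arrays were kept, which leaves out its dim probe.

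**Figure D4:**
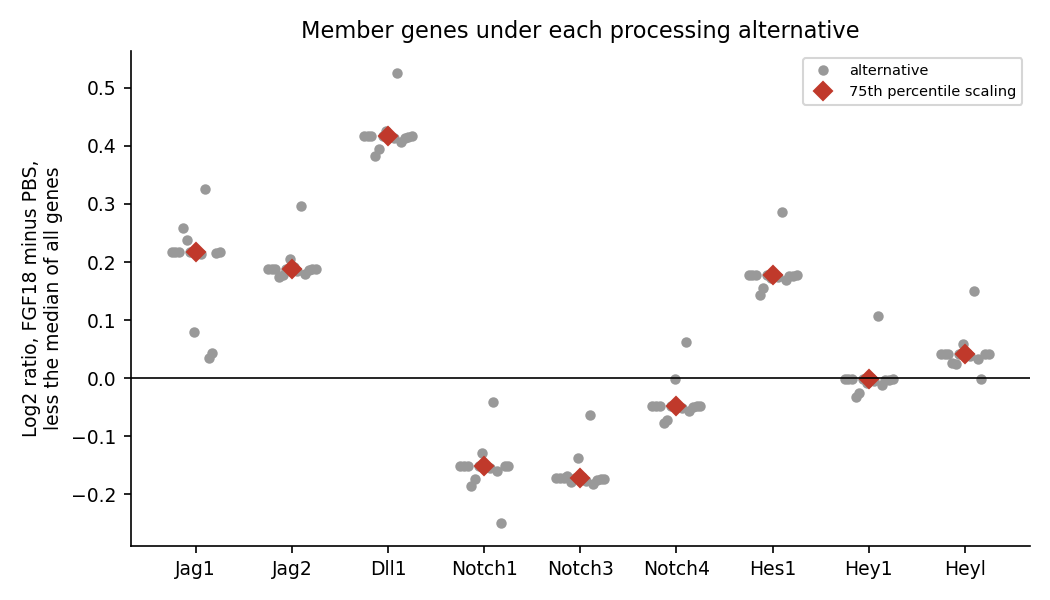
Log2 ratio of each measured member gene less the median of all genes, under the 75th percentile scaling (diamonds) and each of the 14 alternatives (circles). Dll1 stays highest, between 0.38 and 0.53, and Notch1 and Notch3 stay below 0, between -0.25 and -0.04 and between -0.18 and -0.06.

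The other genes of the pathway were taken from a list of 60 genes in 7 roles, members included, of which 59 were on the array and 53 measured on both. Of these 53, 2 were at least 1.5-fold higher on the FGF18 array, against 3.77% of all genes, and 0 were at least 1.5-fold lower, against 4.86%. The median ratio of the 53 was -0.04, beside -0.07 for all genes. Aph1a, which encodes a subunit of gamma-secretase, was 2.15-fold higher, with signals averaging 504 and 193.9 over 2 probes whose ratios were 0.94 and 1.27. Its fold was 1.74 with normexp background correction and between 1.74 and 2.44 over the alternatives other than spike-in scaling. Mfng, a Fringe glycosyltransferase that modifies Notch, had a ratio of 0.68 on 1 probe (signals of 1170 and 645) and was past 1.5-fold in 14 of 14 alternatives. Lfng, another Fringe, was 1.45-fold higher on 2 probes at 0.35 and 0.72. It passed 1.5-fold in 7 of the 14, and in 6 of those other than spike-in scaling.

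Other genes of the cleavage step had lower ratios than Aph1a. The gamma-secretase subunits Psen2, Psenen and Aph1b were at -0.09, -0.22 and -0.09. The dim Aph1c was at 0.34, at signals of 43.4 and 30.2, and was below 0 in 1 of 13 alternatives. Ncstn was well above background on the PBS array only, with signals of 31.8 with FGF18 and 37.3 with PBS. After scaling, these signals of 1 probe near the floor were 1.33-fold lower with FGF18, which was not counted as a measured ratio. The ADAM proteases that make the first cut gave -0.35 for Adam10, at dim signals of 50.2 and 56.5, and 0.37 for Adam17. In the nuclear complex, Rbpj, the DNA-binding partner of Notch, was at -0.06 and its co-activator Maml1 at 0.05. Maml2, another co-activator, was lowest at -0.53, on 1 probe with dim signals of 80.1 with FGF18 and 102 with PBS.

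Other measured ligands and effectors had ratios between -0.28 and 0.25. Dll4, the Delta-like ligand of sprouting vessels, was at -0.24 at signals of 81.6 and 84.8. Dlk1, a non-canonical ligand, was lowest at -0.28, at dim signals of 36.1 and 38.6. Dll3 was not well above background on either array (6.52 and 10.4). Hes6, which belongs to the Hes family, was highest among the effectors at 0.25 on 2 probes in close accord, followed by Hes5 at 0.16. Hey2 was at -0.17 and Nrarp, a feedback inhibitor induced by Notch, lowest at -0.19. Among the glycosylation genes Pofut1, which adds O-fucose to Notch, was lowest at -0.20. Of the trafficking and turnover genes, Neurl1a, a ubiquitin ligase for ligands, was highest at 0.38 and Fbxw7, which marks Notch for degradation, lowest at -0.53; Numb, a Notch inhibitor, was at 0.37 as the mean of 3 probes between 0.02 and 0.70.

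**Figure D5:**
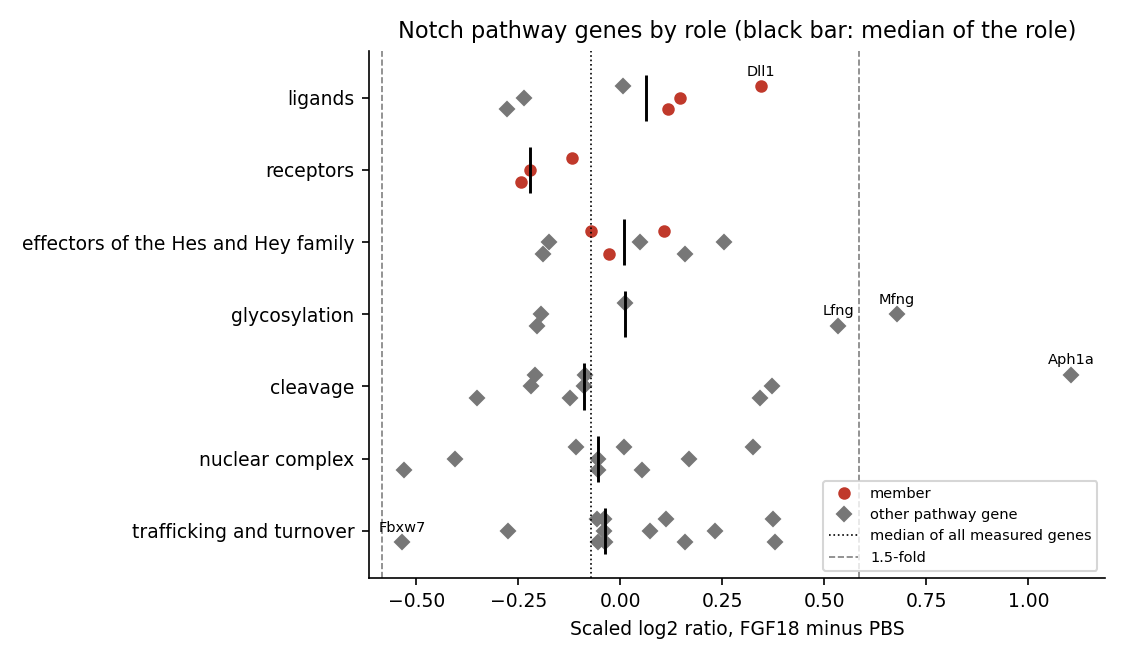
Scaled log2 ratio, FGF18 minus PBS, of the 53 measured Notch pathway genes by role; circles are members, diamonds other genes, black bars the median of each role, dashed lines 1.5-fold. Aph1a (1.11) and Mfng (0.68) lie past the upper dashed line and no gene lies past the lower one.

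Markers of cell types that can carry these transcripts were listed as well. The 15 endothelial markers had a median of 0.05, from -0.14 (Vwf) to 0.58 (Kdr), and summed signals of 18120.4 with FGF18 and 14988 with PBS. These sums, here and in the lists that follow, are of unscaled signals and are weighted to the brightest probes. The 10 mural cell markers had a median of 0.06, from -0.42 (Tagln) to 0.51 (Abcc9), and summed to 37449 and 33309. In both lists every marker was measured and 0 passed 1.5-fold, against 8.63% of all genes. Kdr passed it in 5 of the alternatives other than spike-in scaling, and Abcc9 in 2. The 10 suprabasal markers, from Casp14 (-1.17) to Dsg1a (-0.28), summed to 366943 and 477700.0. Of them 6 were at least 1.5-fold lower, against 4.86% of all genes. The 8 basal markers, from Krt15 (-0.22) to Dst (0.16), summed to 464749 and 428827. Hair matrix, cuticle and shaft markers had a median of -0.72 over 13 of 14 genes, from Krt34 (-2.44) to Krt35 (0.07). Of the 13, 7 were at least 1.5-fold lower, against 4.86% of all genes, and the sums were 103144 and 99223. Krt35 alone gave 72400 and 60900 of these sums, and without it the FGF18 sum is the lower one. Inner root sheath markers had a median of -0.66 over 8 of 10, from Krt26 (-1.21) to Krt28 (-0.40). Of the 8, 5 were at least 1.5-fold lower, against 4.86% of all genes, with sums of 217571 and 296402. Under spike-in scaling the medians of these 2 follicle lists were 0.10 and 0.15, so their counts of lower markers depend on the scaling. The part of these cells in the Notch ratios was not tested.

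Pigment, dermal papilla and immune cells complete the lists. Melanocyte markers had a median of 0.15 over 8 genes, from Slc45a2 (-0.20) to Tyr (0.69), and summed to 62220.0 and 45653. Tyr was dim, at signals of 52.2 and 28.6, and its ratio was as low as 0.09 over the alternatives. Dermal papilla markers were at -0.04 over 9 of 10, from Lepr (-0.58) to Corin (0.49), with Rspo3 not well above background on either array and sums of 2819 and 2699. T cell and macrophage markers were at -0.30 over 10 of 12, from Mrc1 (-0.70) to Itgam (0.99), with Cd8a not well above background on either array and sums of 12191 and 12065. In this joint list the measured T cell markers were all below 0, and the macrophage markers lay on both sides. Of the 10, 1 was at least 1.5-fold higher, against 3.77% of all genes, and 2 at least 1.5-fold lower, against 4.86%. The list median was 0.51 under spike-in scaling. The part of these cells in the Notch ratios was not tested either.

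Promoter sequences were taken from RefSeq (GRCm38.p6), which matched 7 of the 10 members with 8 start sites. Those of Dll1, Jag1 and Notch1 are shown because of their ratios. The replicate spots of Dll1 all lay above 0, those of Notch1 all lay below 0, and the probes of Jag1 did not give the same sign. Each sequence is the 250 bases before the outermost start of the gene, 5′ to 3′ on the minus strand. They lie at chr17:15376933-15377182 for Dll1, chr2:137116521-137116770 for Jag1 and chr2:26503823-26504072 for Notch1. Capitals mark CACGNG on either strand, the letters that Hes and Hey repressors can bind, and Notch1 has none.
Dll1: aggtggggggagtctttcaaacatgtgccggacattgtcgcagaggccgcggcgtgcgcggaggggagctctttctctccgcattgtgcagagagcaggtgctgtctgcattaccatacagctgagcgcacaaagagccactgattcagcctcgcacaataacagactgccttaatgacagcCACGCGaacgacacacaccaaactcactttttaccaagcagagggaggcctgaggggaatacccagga
Jag1: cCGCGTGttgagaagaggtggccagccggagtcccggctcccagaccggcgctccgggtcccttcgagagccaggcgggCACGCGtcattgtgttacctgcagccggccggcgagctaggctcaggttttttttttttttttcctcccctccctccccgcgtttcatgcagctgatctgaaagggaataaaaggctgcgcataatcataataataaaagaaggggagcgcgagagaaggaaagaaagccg
Notch1: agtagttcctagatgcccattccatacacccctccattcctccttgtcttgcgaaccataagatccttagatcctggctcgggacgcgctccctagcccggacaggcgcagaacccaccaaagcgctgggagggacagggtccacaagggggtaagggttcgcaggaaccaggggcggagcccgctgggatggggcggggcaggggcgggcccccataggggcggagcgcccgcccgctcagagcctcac
CACGNG was found in 5 of the 8 member windows of this length (both of Dll1, and those of Jag1, Notch2 and Notch3) and in 23.5% of 32851 windows of all genes. Its first base lay 68 bases before the start in the Dll1 window shown and 249 and 171 bases before it in that of Jag1. The member windows held 56% to 87.2% G and C, against a median of 52.4% over all windows. The RBPJ letters GTGGGAA and GTGAGAA, searched on both strands, were in 0 of the 8 windows, and in 5.42% and 3.83% of all windows. The ETS letters CCGGAA (12.0% of all windows), the AP-1 letters TGACTCA (4.46%) and the interferon-stimulated response motif (2.98%) were likewise in 0 of the 8. CACGNG includes the E-box CACGTG, and no other motif was found in these windows to overlap it. These matches are letters in a window and say nothing of binding.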

How the data were processed

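Per the file headers, Agilent Feature Extraction 9.5.3.1 read the 2 arrays (design 014868). The deposited intensity values are the processed signal (background-subtracted and detrended), its error, the spot mean and the local background. The deposited series value table is a ratio, found here to be the processed signal over a per-array constant (83.8 and 80.0) within 0.0072 in log2; medians were 1.00 (FGF18) and 0.999 (PBS). The deposited files also hold flags, other columns per the file headers. The headers give both arrays the same slide and scan, and 0 value columns were unmapped. The builds of the probe positions are not given in the sources used here.

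Ratios exclude 1639 control spots and 151 spots with an outlier flag. Log2 processed signals were scaled to each array's 75th percentile, spots and then measured probes of a gene were averaged, and genes were counted at 1.5- and 2-fold. List genes were matched by symbol or else a RefSeq synonym of 1 gene (5 of 60 pathway genes). The steps were tested on simulated data. Python 3.11.15, R 4.3.3 and limma 3.58.1 were used. No p-value is given.

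The members, lists and alternatives were chosen with earlier results of these data known. All members are named; other pathway genes are named if fixed by name, highest or lowest of a role, or past 1.5-fold, and marker genes if highest or lowest of a list; some genes this rule names are not reported here. Psen2, Psenen, Aph1b, Aph1c and Lfng's values over the alternatives were added after their values were seen. The 14 alternatives were 6 scalings, normexp with an offset of 50, the value table, 3 filters on dim probes, 2 rules for several probes, and RefSeq names; a negative-control threshold was tried for the 1.5-fold count.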

Additional observations from a re-analysis of the deposited data

How the results depend on the processing

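The count of 0 members past 1.5-fold held in 14 of 15 alternatives, and 0 past 2-fold in 13 of 14. With scaling to spike-in transcripts 8 members passed 1.5-fold, 1 passed 2-fold, the member median was 0.78 and 45 pathway genes passed 1.5-fold, because every ratio gained 0.81. The median of the members was 0.074 with scaling to the median and 0.15 without scaling. These settings moved the median of all genes by 0.10 and 0.18. Without a filter on dim probes the member median was 0.039 over 10 members, because Notch2 entered as the highest. There 5 pathway genes passed 1.5-fold in place of 2, and the median of all genes moved by -0.11. Members above 0 numbered 4 of 9 with the 75th percentile, 6 with the median and 7 without scaling. With 1 array per group, no replicate could be left out. No paired analysis was possible because the groups share only replicate number 1. Signals near the floor of 23.3 and 24.2 limit what Notch2, Dll3 and the first Jag1 probe can show. The same holds for Dlk1, Aph1c, Ncstn, Adam10 and Tyr.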
